A study of Mus musculus with 12 samples.

Results

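The genes described here encode the complement and coagulation proteins that the liver supplies to blood plasma: 41 genes named by symbol, 22 of complement and 19 of coagulation, out of 24787 genes in the deposited count tables. The rule names them by symbol and uses no measured value, but the list was chosen with earlier results of these data known. The livers came from C57Bl/6 mice in 3 groups of 4 libraries each. HFD+MEC1 mice ate a high-fat diet and, after 2 months of it, were injected daily into the peritoneum with 0.5 mg/kg of MEC1, a compound known here by its code name. HFD mice ate the same diet and were injected with vehicle alone, having been randomised from the same animals. ND mice ate a normal diet, and the sources used here do not state whether they were injected, nor any sex or age of the mice or the length of dosing. The study set out to examine MEC1 in a chronic disease model, so HFD+MEC1 against HFD asks about the compound and HFD against ND about the diet; any effect of injection in the second comparison cannot be told apart from that of the diet. Total RNA was taken from whole liver and sequenced.

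Complement is a set of plasma proteases and binding proteins that label surfaces for uptake and, at the end of the chain, assemble a pore in membranes. It is started by C1q (the classical route), by mannose-binding lectins (the lectin route) or by slow turnover of C3 itself (the alternative route), and all routes meet at the cleavage of C3 and then C5. Coagulation is a chain of zymogens that ends with thrombin turning fibrinogen into fibrin, with plasmin dissolving the clot and serpins and protein C holding the chain in check. Hepatocytes make most of these proteins, C1q comes mainly from macrophages, and several members, fibrinogen and C3 among them, are known as acute phase proteins.

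All 41 genes were measured well enough to be tested, at 39916405 to 51340317 counts per library. Levels are given as CPM, counts as a share of the TMM-scaled library, listed for replicates 1 to 4 of a group, and group values are mean ± SD with n = 4. Log2 fold changes are given with their SE, and a gene is said to rise or fall only where edgeR's quasi-likelihood test gave a Benjamini-Hochberg adjusted p under 0.05 over all 14172 tested genes. Nothing in the labels states that the 4 libraries of a group are separate mice, so p-values measure the spread between these samples, which may be technical in part. A pair of HFD+MEC1 libraries stood apart. The summed level of 20 acute phase genes outside the 41 was 8759, 23038, 68605 and 21405 CPM in HFD+MEC1 replicates 1 to 4, 9599 to 17806 CPM in HFD libraries and 13581 to 19679 CPM in ND libraries. HFD+MEC1 replicate 1 therefore lay below every HFD library on this measure and HFD+MEC1 replicate 3 above all others. By the median log2 deviation of the same genes from ND, HFD+MEC1 replicate 1 was at -0.66, within the HFD range of -0.73 to 0.21. HFD+MEC1 replicate 3 was again the highest, at 2.05. The summed level of 8 hepatocyte markers, Alb among them, was 80329 to 105806 CPM in HFD+MEC1, 96618 to 109302 CPM in HFD and 98729 to 112182 CPM in ND libraries, with HFD+MEC1 replicate 3 the lowest. Of the 8, 0 passed edgeR's test in HFD+MEC1 against HFD (2 at an unadjusted p under 0.05, 0 by DESeq2 and 0 by limma-voom), and 1, the urea cycle gene Cps1, passed in each comparison with ND, at 1988 ± 572 CPM in HFD+MEC1, 1929 ± 540.1 CPM in HFD and 4383 ± 233 CPM in ND (adjusted p 0.00762 and 0.00498 against ND). By edgeR's test, 4.54% of all tested genes passed in HFD+MEC1 against ND and 6.3% in HFD against ND. DESeq2, which called 8.15% and 9.82% of all tested genes there, called Cps1 and Tat lower in both. Limma-voom, which called 4.18% and 6.29%, called Cps1 alone. Of all tested genes, 14.8% had an unadjusted p under 0.05 in HFD+MEC1 against HFD. The part of hepatocyte content in the results was not tested. The 4 adipocyte markers Adipoq, Plin1, Lep and Retn had at most 4 counts in any library.

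The most abundant transcripts per unit of length were those of fibrinogen and C3. On the authors' RPKM scale, which divides reads by transcript length and by library size, Fgb, the fibrinogen beta chain, was highest in all 3 groups, at 3188 ± 1820.0 RPKM in HFD+MEC1, 1664 ± 408 RPKM in HFD and 1987 ± 109.7 RPKM in ND livers (SD, n = 4 each), and in ND livers it ranked 25 among all genes. Fgg and Fga, the gamma and alpha chains, came next in ND livers at 1439 ± 72.8 and 968 ± 35.8 RPKM, and C3, at 938 ± 89.1 RPKM, did not differ from Fga beyond the spread. Serpinc1, Plg and F2, which encode antithrombin, plasminogen and prothrombin, followed at 616 ± 33.5, 570.1 ± 21.47 and 529 ± 42.2 RPKM in ND livers. At the low end were Pros1 at 16.7 ± 1.52, Masp1 at 14.2 ± 1.93 and C4a at 13.6 ± 2.45 RPKM in ND livers, the last 2 within each other's spread. The 41 genes together took 3.29, 4.42, 6.88 and 4.22% of all counts in HFD+MEC1 replicates 1 to 4, 2.80, 3.12, 3.13 and 3.73% in HFD and 3.83, 3.76, 3.68 and 3.91% in ND.

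**Figure D1:**
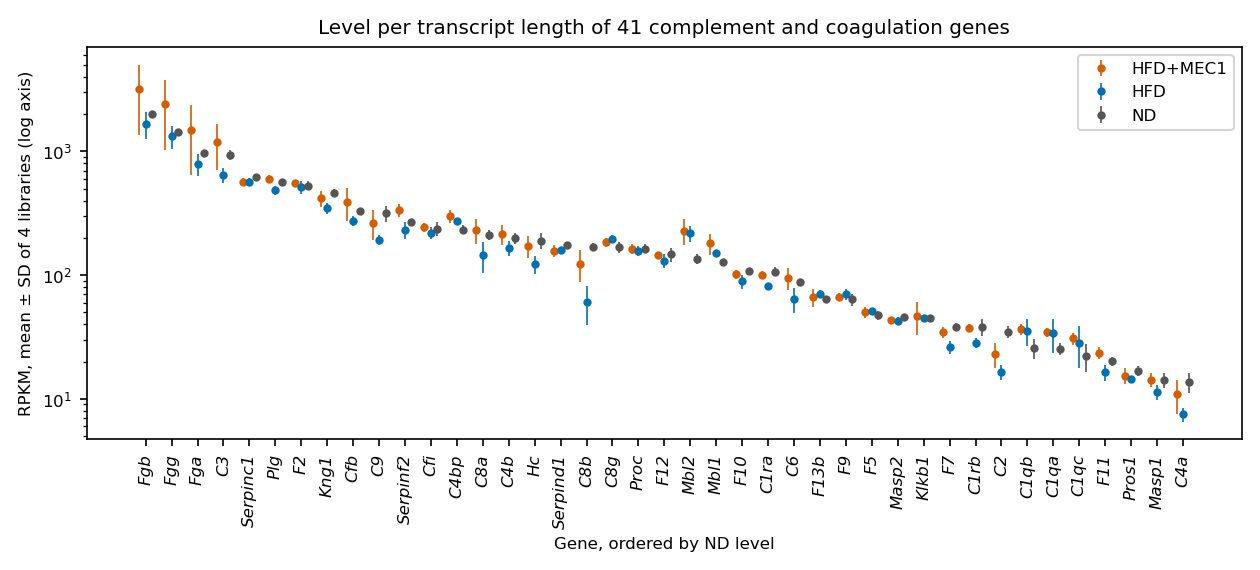
RPKM of the 41 genes on a log axis in HFD+MEC1, HFD and ND livers, with points at the group means and bars for the SD (n = 4). Fgb, Fgg, Fga and C3 occupy the top of the scale and C4a, Masp1 and Pros1 the bottom.

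On the high-fat diet alone, 15 of the 22 complement genes had negative log2 fold changes against the normal diet, and part of the classical, lectin and terminal chain fell. Against ND, 8 of the 22 complement genes fell in HFD livers (C1ra, C1rb, C2, C4a, Hc, C8b, C9 and Masp1), 1 rose (Mbl2) and 13 did not pass, where 6.3% of all tested genes passed, 2.95% falling and 3.35% rising. The median log2 fold change of the 22 was -0.38, against -0.0035 over all tested genes. In 11 complement genes every HFD library lay below every ND library and in 1 every HFD library lay above, where 6.81% and 7.46% of all tested genes did so. Among the 19 coagulation genes 2 fell (F7 and Kng1), 0 rose and 17 did not pass, with a median of -0.26. An unadjusted p under 0.05 was found for 14 complement and 10 coagulation genes, and for 2928 of the 14172 tested genes (20.7%). DESeq2, which called 9.82% of all tested genes in this comparison, also called C3, C6, C8a, F10, Plg and Serpinc1 lower in HFD, and limma-voom, which called 6.29%, did not call C4a and C9. In 9 coagulation genes (F7, F10, F11, Kng1, Plg, Proc, Pros1, Serpinc1 and Serpind1) every HFD library lay below every ND library. Without HFD replicate 3, which held the lowest level of all 12 libraries for 7 complement genes, 2 complement genes (C2 and C8b) and 1 coagulation gene (F7) still passed. In that setting 2.95% of all tested genes passed, against 6.3% with every library kept.

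With MEC1 on the high-fat diet, 21 of the 22 complement genes and 15 of the 19 coagulation genes had positive log2 fold changes against HFD, but 0 passed edgeR's test in either set, where 0.0282% of all tested genes did, 0.00706% higher and 0.0212% lower. The medians were 0.37 for complement and 0.17 for coagulation, against 0.0060 over all tested genes. The smallest adjusted p was 0.108 in complement (C3) and 0.101 in coagulation (Serpinf2), and 13 and 7 members had an unadjusted p under 0.05, as did 14.8% of all tested genes. DESeq2 called 3 complement genes (C3, C8a and C8b) and 2 coagulation genes (F11 and Serpinf2), all higher, where it called 2.74% of all genes, and limma-voom, which called 0.0141%, called 0 in both sets. The count changed with the libraries left out. Without HFD+MEC1 replicate 1, 12 complement genes (C1ra, C1rb, C2, C3, C4a, C4b, Hc, C6, C8a, C8b, C9 and Cfb) and 6 coagulation genes (F7, F11, Fga, Fgb, Fgg and Serpinf2) were higher in HFD+MEC1, where 3.2% of all tested genes passed and 1.21% were higher. Without HFD replicate 4, 1 coagulation gene (Serpinf2) and 0 complement genes were higher, where 0.501% of all tested genes passed. Leaving out HFD+MEC1 replicate 2, 3 or 4 instead left 0 members and 0 genes of the series past the threshold.

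Set against ND, HFD+MEC1 livers differed in 2 complement genes and in 0 coagulation genes. Mbl2 rose and C2 fell, where 4.54% of all tested genes passed, 2.15% rising and 2.4% falling, and the medians were 0.044 for complement and -0.042 for coagulation, against 0.0032 over all tested genes. DESeq2, which called 8.15% of all tested genes here, called Mbl1 higher as well, and limma-voom, which called 4.18%, called the same 2 complement genes as edgeR. Both tools called 0 coagulation genes, and 1 had an unadjusted p under 0.05, as did 19.1% of all tested genes. The comparisons of HFD with ND and of HFD+MEC1 with HFD share the HFD libraries, and those with ND share the ND libraries, so their values are given side by side and not correlated.

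**Figure D2:**
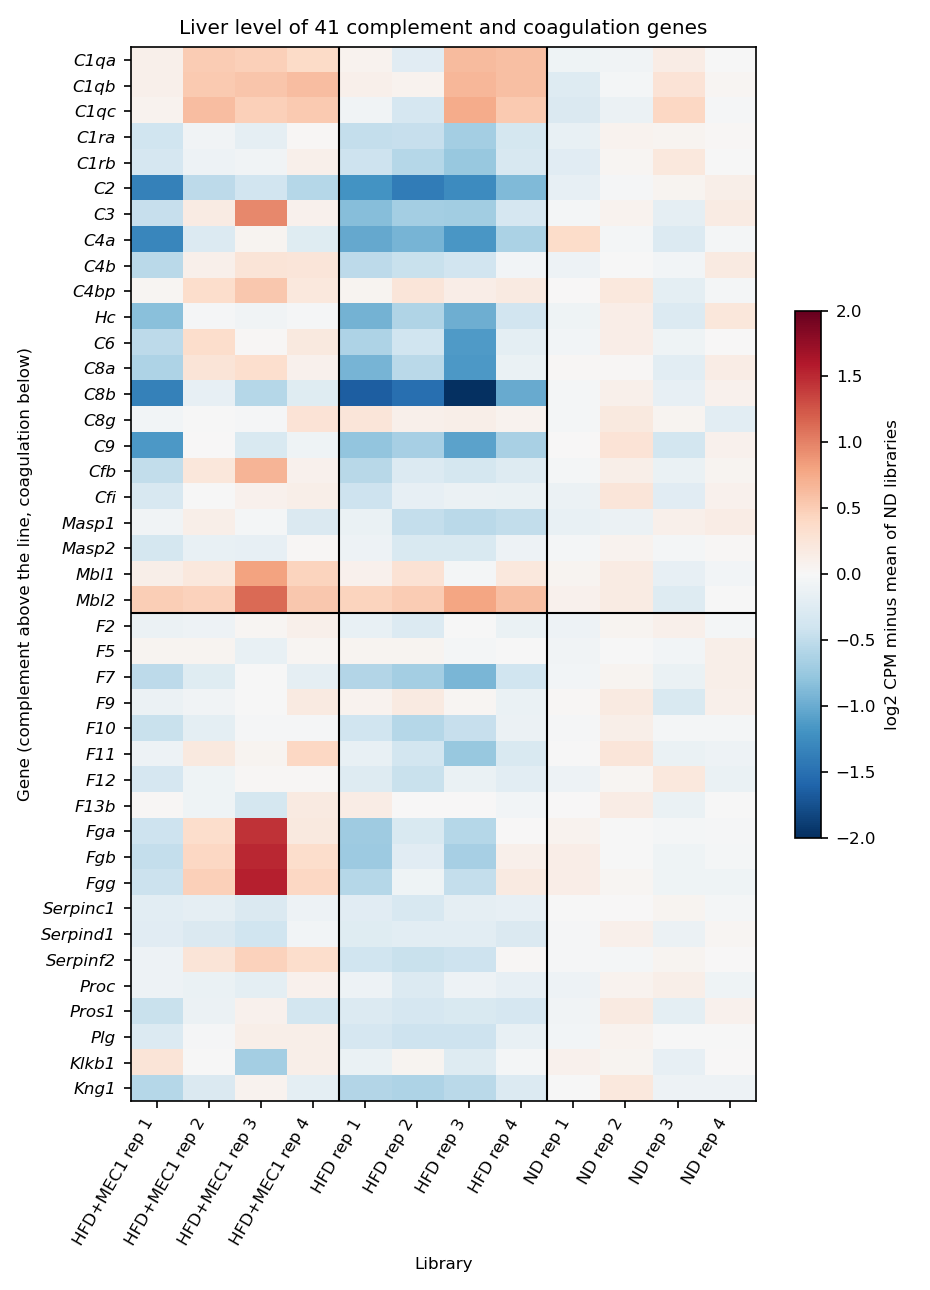
Log2 CPM of each gene in each library minus its mean over the ND libraries, with libraries in columns by group (HFD+MEC1, HFD, ND) and genes in rows by role. HFD libraries are below ND for most complement genes, HFD+MEC1 replicate 1 resembles them in colour, and HFD+MEC1 replicate 3 has the strongest positive values, at the fibrinogen genes.

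**Figure D3:**
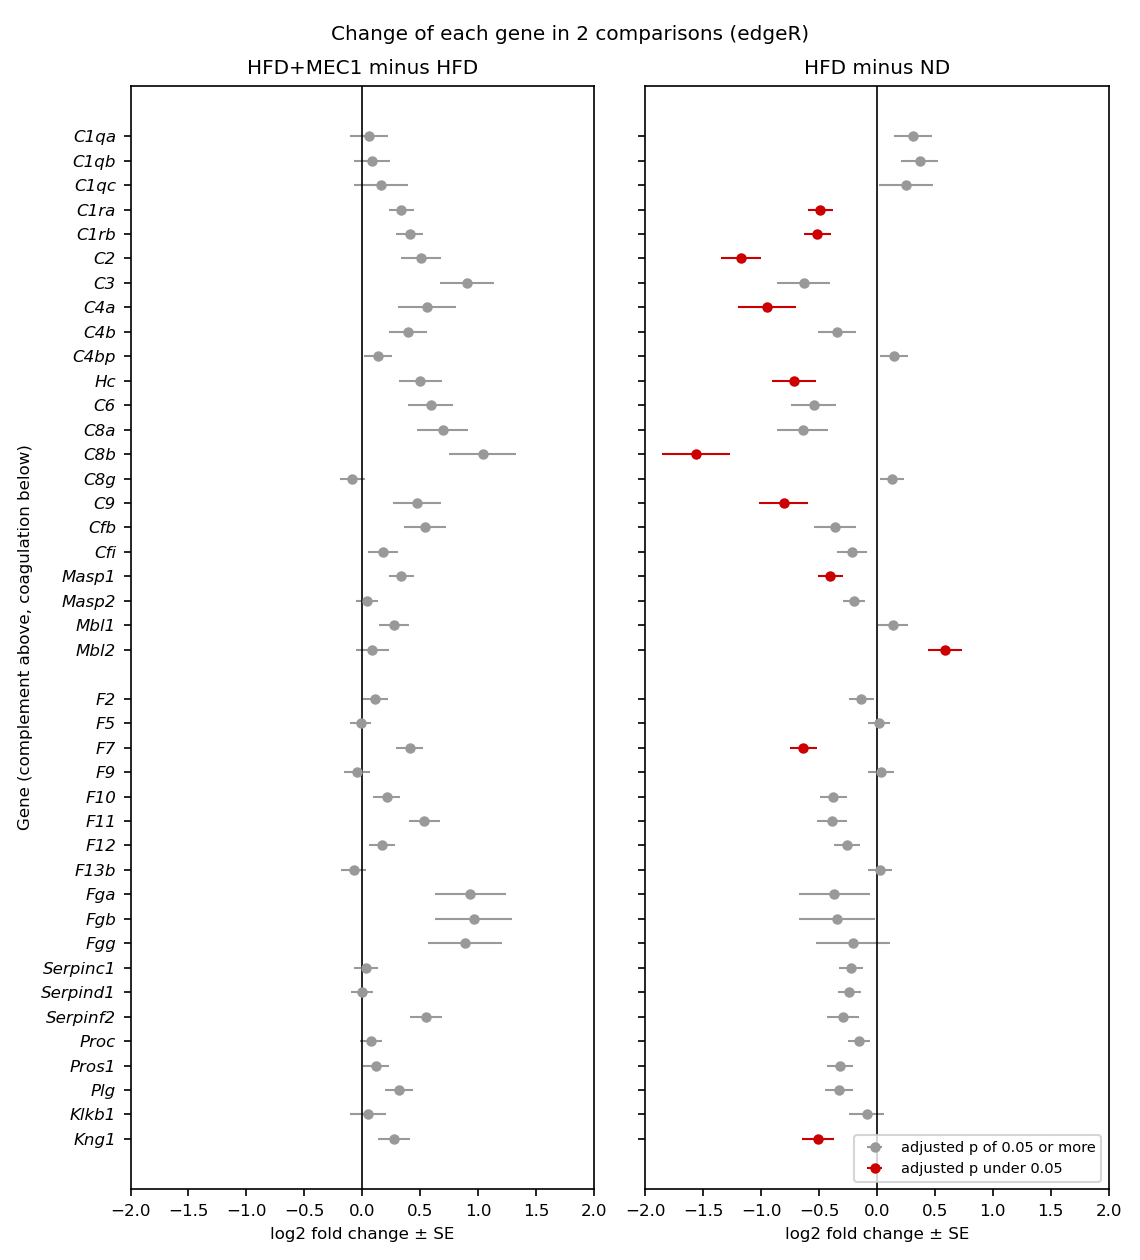
Log2 fold change and SE of each gene for HFD+MEC1 minus HFD (left) and HFD minus ND (right). Points are red for adjusted p under 0.05 and grey otherwise. C8b has the most positive value on the left (1.04 ± 0.29) and the most negative on the right (-1.56 ± 0.29), and no point is red on the left.

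The recognition subunits of the classical route were not among the genes that fell. C1qa, C1qb and C1qc, made mainly by macrophages, had positive log2 fold changes of 0.31 ± 0.16, 0.37 ± 0.16 and 0.25 ± 0.23 in HFD against ND, and none passed (adjusted p 0.301, 0.198 and 0.599). C1qb averaged 48.9 ± 7.35 CPM in HFD+MEC1, 46.1 ± 10.03 CPM in HFD and 35.7 ± 5.55 CPM in ND livers. C1qa averaged 46.8 ± 5.73 CPM in HFD+MEC1, 44.9 ± 12.5 CPM in HFD and 36.2 ± 2.75 CPM in ND livers, and C1qc 40.8 ± 6.31 CPM in HFD+MEC1, 36.4 ± 12.3 CPM in HFD and 30.6 ± 6.74 CPM in ND livers. HFD+MEC1 minus HFD was within 0.16 on the log2 scale for all 3 genes. The summed level of 10 Kupffer cell and macrophage markers, all of them tested and none at 0, was 474 to 683 CPM in HFD+MEC1, 413 to 625 CPM in HFD and 355 to 506 CPM in ND libraries. Cd163, named after its value was seen, was the only one of the 10 that passed edgeR's test in any comparison, at 31.6 ± 5.10 CPM in HFD+MEC1 and 20.8 ± 2.48 CPM in ND livers (adjusted p = 0.0256). DESeq2 also called Cd163 higher in HFD+MEC1 against HFD, Cd163, Cd5l and Clec4f higher in HFD+MEC1 against ND and Cd68 higher in HFD against ND. In whole liver, a change in the number of cells of a type and a change in RNA per cell cannot be told apart, and the part of macrophage number in the C1q values was not tested. The ratio of C1qa to C1qb RPKM stayed between 0.815 and 1.13 over the 12 libraries.

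C1r, the protease that C1q activates, is encoded in the mouse by a pair of neighbouring genes, and both fell on the diet. C1ra (ENSMUSG00000055172.10, chromosome 6, 124512405 to 124523443, plus strand, in GRCm38) was at 296, 369.6, 342 and 395 CPM in HFD+MEC1 replicates 1 to 4, at 280.1, 283, 243 and 304 CPM in HFD and at 350.0, 408, 403 and 397 CPM in ND. C1rb (chromosome 6, 124570294 to 124581171, plus strand) was at 85.6, 101, 103 and 116 CPM in HFD+MEC1, 81.5, 73.2, 64.2 and 86.8 CPM in HFD and 92.3, 111, 126 and 108 CPM in ND. For both genes every HFD library was below every ND library, and HFD+MEC1 libraries overlapped with both groups. C1ra fell by 0.49 ± 0.11 on the log2 scale (adjusted p = 0.0132) and C1rb by 0.51 ± 0.12 (adjusted p = 0.0154) in HFD against ND. Against HFD, the HFD+MEC1 values were 0.34 ± 0.11 for C1ra and 0.41 ± 0.12 for C1rb (adjusted p 0.171 and 0.138). Without HFD replicate 3 both diet calls were lost (adjusted p 0.055 and 0.0602). Of the 50-base stretches of the C1ra transcript 50.8% occur in another gene, mostly C1rb, and of C1rb 60.5%, so the pair may share reads and is not 2 independent results.

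C4 and C2 supply the C3-cleaving enzyme of the classical and lectin routes, and C2 had one of the clearest differences. C2, the protease of that enzyme (ENSMUSG00000024371.14, chromosome 17, 34862604 to 34898265, minus strand), was at 47.6, 84.7, 93.7 and 82.1 CPM in HFD+MEC1, 53.3, 46.3, 50.9 and 66.3 CPM in HFD and 109, 120.5, 127 and 132 CPM in ND. Every HFD and every HFD+MEC1 library was below every ND library, and HFD+MEC1 replicate 1 was within the HFD range while replicates 2 to 4 were above it. C2 fell by 1.17 ± 0.17 in HFD against ND (adjusted p = 0.00198), a call kept in 17 of 17 alternatives with an adjusted p of at most 0.0104. It fell by 0.67 ± 0.17 in HFD+MEC1 against ND (adjusted p = 0.0451), and this call was lost in 10 of 17 alternatives, with an adjusted p up to 0.118: without any 1 of the ND libraries, HFD replicate 1, 2 or 3, HFD+MEC1 replicate 2 or 4, and with no filter on low counts. Against HFD, HFD+MEC1 stood at 0.51 ± 0.17 (adjusted p = 0.2). The annotation has a readthrough transcript, Gm20547, that joins C2 to its neighbour Cfb and holds 58% of the 50-base stretches of C2 and 81.4% of those of Cfb.

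C4a, which in the mouse encodes the sex-limited relative of C4, fell on the diet as well. C4a (chromosome 17, 34809092 to 34823464, minus strand), which GENCODE lists as a processed transcript, was at 38.6, 79.2, 98.7 and 80.4 CPM in HFD+MEC1, 47.0, 50.1, 42.5 and 61.5 CPM in HFD and 123, 92.5, 78.8 and 92.7 CPM in ND. HFD libraries were all below ND libraries, and HFD+MEC1 replicate 1 was the lowest of all 12. The difference of HFD from ND was -0.95 ± 0.25 (adjusted p = 0.0497) and that of HFD+MEC1 from HFD 0.56 ± 0.25 (adjusted p = 0.329). The diet call held in 5 of 17 alternatives only and was lost without any 1 ND library, without HFD replicate 1, 2 or 3 or HFD+MEC1 replicate 2 or 4, with the replicate block, with limma-voom and with no filter, where the adjusted p reached 0.142. C4b, the C4 gene proper, averaged 1463 ± 337 CPM in HFD+MEC1, 1114 ± 167 CPM in HFD and 1415 ± 124 CPM in ND, with adjusted p 0.278 for HFD+MEC1 against HFD and 0.243 for HFD against ND. C4a and C4b share 35.2% of their 50-base stretches, and the ratio of their RPKM was 0.04001 to 0.0586 in HFD+MEC1, 0.0396 to 0.0483 in HFD and 0.0586 to 0.0946 in ND libraries.

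The lectin route held the only member that rose. Mbl2, a mannose-binding lectin that recognises sugars on microbes (ENSMUSG00000024863.6, chromosome 19, 30232942 to 30239687, plus strand), was at 269, 263, 419 and 276 CPM in HFD+MEC1, 261, 273, 332 and 291 CPM in HFD and 203, 214, 160.4 and 191 CPM in ND. Both high-fat groups were above every ND library and overlapped with each other, with HFD+MEC1 replicate 3 the highest. Mbl2 rose by 0.67 ± 0.14 in HFD+MEC1 against ND (adjusted p = 0.0139, at most 0.0463 in 17 alternatives) and by 0.59 ± 0.14 in HFD against ND (adjusted p = 0.0231). Without ND replicate 3 or 4 or HFD replicate 3 the call of HFD against ND was lost, with an adjusted p up to 0.0835. HFD+MEC1 minus HFD was 0.086 ± 0.14 (adjusted p = 0.827). Mbl1, the other mannose-binding lectin of the mouse, averaged 209 ± 45.9 CPM in HFD+MEC1, 173 ± 17.1 CPM in HFD and 157 ± 15.6 CPM in ND, and its smallest adjusted p by edgeR was 0.0869, for HFD+MEC1 against ND, where DESeq2 called it higher.

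Masp1, a protease that travels with these lectins, fell on the diet. It was at 94.8, 108, 96.4 and 81.6 CPM in HFD+MEC1, 91.1, 71.5, 68.4 and 70.8 CPM in HFD and 90.04, 91.9, 107 and 110.3 CPM in ND. HFD replicate 1 reached into the ND range and the other HFD libraries were below it. Masp1 fell by 0.40 ± 0.11 in HFD against ND (adjusted p = 0.038), and HFD+MEC1 stood at 0.34 ± 0.11 against HFD (adjusted p = 0.177). The diet call was lost in 7 of 17 alternatives, without ND replicate 3 or 4, without HFD replicate 2, 3 or 4, with the replicate block and with library totals, at an adjusted p up to 0.169. Masp2, which cleaves C4 and C2, averaged 174 ± 18.3 CPM in HFD+MEC1, 169 ± 14.0 CPM in HFD and 195 ± 7.29 CPM in ND and did not pass edgeR's test in any comparison. As the use of strand in counting is not stated, Masp2 cannot be separated from Tardbp on the opposite strand, which overlaps 54.9% of its exonic sequence.

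At the centre of the cascade, C3 and factor B did not pass edgeR's test in any comparison, and C3 had the smallest adjusted p of complement for MEC1. C3 (ENSMUSG00000024164.15, chromosome 17, 57203970 to 57228136, minus strand) was at 4632, 7119, 12386 and 6767 CPM in HFD+MEC1, 3544, 3989, 3922 and 5056 CPM in HFD and 6208, 6678, 5631 and 7117 CPM in ND. All HFD libraries were below all ND libraries, HFD+MEC1 replicate 1 was within the HFD range, and HFD+MEC1 replicate 3 was the highest of the 12. C3 stood at 0.90 ± 0.23 for HFD+MEC1 against HFD (adjusted p = 0.108 by edgeR and 0.00423 by DESeq2) and at -0.63 ± 0.23 for HFD against ND (adjusted p = 0.119 by edgeR), where DESeq2 also called it lower. Without HFD+MEC1 replicate 3 the first value was 0.59, which moves it by over 1.5 times, and without replicate 1 it was 1.09 ± 0.20 (adjusted p = 0.0138). The acute phase sum given above is likewise highest in HFD+MEC1 replicate 3 and lowest in replicate 1, and its part in the C3 value was not tested. Cfb, the protease of the alternative route, averaged 1365 ± 445 CPM in HFD+MEC1, 939 ± 86.2 CPM in HFD and 1205 ± 87.4 CPM in ND (HFD+MEC1 minus HFD 0.54 ± 0.18, adjusted p = 0.188). The inhibitors did not pass edgeR's test in any comparison. Cfi, which inactivates C3b and C4b, averaged 640.0 ± 83.9 CPM in HFD+MEC1, 564 ± 51.3 CPM in HFD and 657 ± 95.8 CPM in ND, and C4bp, its cofactor for C4b, averaged 711 ± 102 CPM in HFD+MEC1, 645 ± 34.6 CPM in HFD and 582 ± 69.2 CPM in ND.

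Of the genes of the terminal pore, C8b had the greatest fold difference of complement in HFD against ND and in HFD+MEC1 against HFD. C8b, which encodes the beta chain of C8 (ENSMUSG00000029656.13, chromosome 4, 104766317 to 104804548, plus strand), was at 197, 446, 338 and 422 CPM in HFD+MEC1, 159.6, 177, 95.0 and 249.99 CPM in HFD and 489.5, 539.6, 449 and 534 CPM in ND. Every ND library was above every library of both high-fat groups, HFD replicate 3 was the lowest, and HFD+MEC1 replicate 1 was within the HFD range while replicates 2 to 4 were above it. C8b fell by 1.56 ± 0.29 in HFD against ND (adjusted p = 0.0103), kept in 17 of 17 alternatives with an adjusted p of at most 0.034. HFD+MEC1 stood at 1.04 ± 0.29 against HFD (adjusted p = 0.15) and at -0.52 ± 0.29 against ND (adjusted p = 0.363). The value against HFD was 1.06 without HFD+MEC1 replicate 3 and 1.24 ± 0.24 without replicate 1 (adjusted p = 0.024).

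C8a, the alpha chain, lies beside C8b on chromosome 4 (chromosome 4, 104815679 to 104876398, minus strand). It was at 662, 1221, 1288 and 1076 CPM in HFD+MEC1, 533, 697, 461 and 931 CPM in HFD and 1039, 1039, 880.2 and 1131 CPM in ND. HFD replicate 4 reached into the ND range, and HFD+MEC1 overlapped with both groups. C8a did not pass edgeR's test but was called by DESeq2 in both of these comparisons (HFD minus ND -0.64 ± 0.22, adjusted p = 0.105; HFD+MEC1 minus HFD 0.70 ± 0.22, adjusted p = 0.177). The ratio of C8b to C8a RPKM was 0.425 to 0.635 in HFD+MEC1, 0.334 to 0.485 in HFD and 0.763 to 0.841 in ND libraries, so that both high-fat groups were below ND without overlap and overlapped with each other. C8g, the gamma chain, encoded on another chromosome, averaged 285 ± 31.2 CPM in HFD+MEC1, 303 ± 16.6 CPM in HFD and 277 ± 31.7 CPM in ND and had the only negative HFD+MEC1 minus HFD value of the 22, -0.084 ± 0.10 (adjusted p = 0.763). The ratio of C8g to C8a RPKM was 0.618 to 1.18 in HFD+MEC1, 0.911 to 1.91 in HFD and 0.617 to 0.952 in ND libraries. That of C8b to C8g was 0.409 to 0.904 in HFD+MEC1, 0.175 to 0.477 in HFD and 0.868 to 1.24 in ND. All groups overlapped in the first, and HFD+MEC1 overlapped with both other groups in the second. The C8 ratios were not among those planned and were not tested.

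Hc, the mouse gene for C5, was at 763, 1347, 1298 and 1338 CPM in HFD+MEC1, 711, 903, 692 and 1043 CPM in HFD and 1283, 1499, 1130.2 and 1592 CPM in ND (chromosome 2, 34983331 to 35061438, minus strand). HFD lay wholly below ND, and HFD+MEC1 replicates 2 to 4 were close together with replicate 1 far below them. Hc fell by 0.72 ± 0.19 in HFD against ND (adjusted p = 0.0297) and stood at 0.50 ± 0.19 in HFD+MEC1 against HFD (adjusted p = 0.219). C9, which polymerises to form the pore (chromosome 15, 6445327 to 6498751, plus strand), was at 330.0, 739, 597 and 695 CPM in HFD+MEC1, 423, 461, 349.7 and 466 CPM in HFD and 736, 889.9, 568 and 779.7 CPM in ND. Again HFD lay wholly below ND, and HFD+MEC1 replicate 1 was the lowest of all 12 libraries. C9 fell by 0.81 ± 0.21 in HFD against ND (adjusted p = 0.0345). The Hc call was lost without ND replicate 1, 2 or 4 or HFD replicate 1, 2 or 3 (adjusted p up to 0.104), and the C9 call without the same libraries, without HFD+MEC1 replicate 3 and with limma-voom (adjusted p up to 0.113). C6, which joins the complex after C5b, was at 231, 424, 338 and 379 CPM in HFD+MEC1, 216, 252, 152 and 291 CPM in HFD and 319.7, 365, 314 and 333 CPM in ND. HFD libraries were all below ND libraries here too, but the difference of -0.55 ± 0.19 did not pass edgeR's test (adjusted p = 0.111; DESeq2 called it lower), nor did the 0.59 ± 0.19 of HFD+MEC1 against HFD (adjusted p = 0.185).

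**Figure D4:**
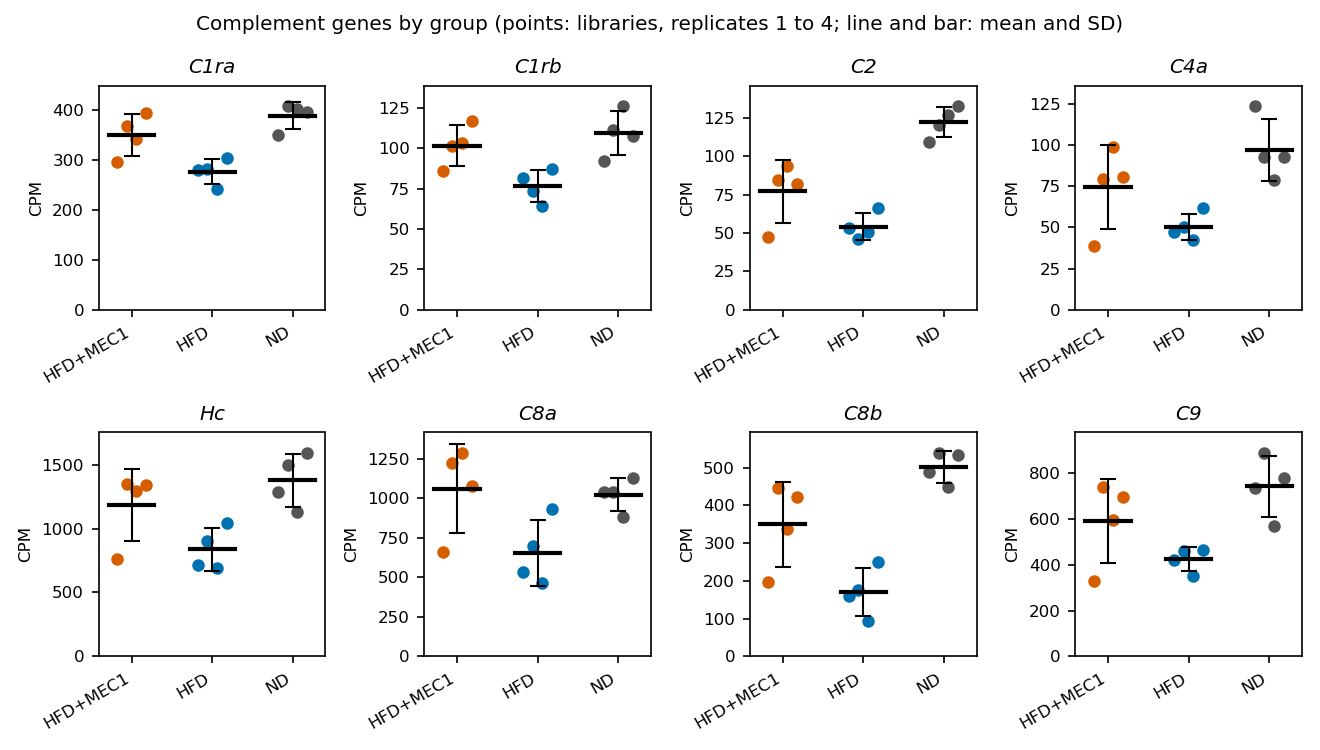
CPM by library of complement genes in order along the cascade in HFD+MEC1, HFD and ND livers, each point a library and each line and bar the group mean and SD (n = 4). HFD points lie below all ND points for C2, Hc and C8b, and HFD+MEC1 replicate 1 is the lowest of its group in each of these.

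In coagulation the trigger of the cascade had the smallest adjusted p on the diet. F7, factor VII, the protease that tissue factor binds (ENSMUSG00000031443.7, chromosome 8, 13026034 to 13035809, plus strand), was at 65.5, 79.6, 93.3 and 83.3 CPM in HFD+MEC1, 62.8, 58.3, 49.6 and 71.5 CPM in HFD and 90.8, 98.0, 85.6 and 102 CPM in ND. HFD was wholly below ND, and HFD+MEC1 overlapped with both. F7 fell by 0.64 ± 0.12 in HFD against ND (adjusted p = 0.00472), kept in 17 of 17 alternatives with an adjusted p of at most 0.0218. HFD+MEC1 stood at 0.41 ± 0.12 against HFD (adjusted p = 0.138), and without HFD+MEC1 replicate 1 at 0.50 ± 0.11 (adjusted p = 0.0324).

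In the contact system, which can start clotting at charged surfaces, Kng1 alone passed edgeR's test, in HFD against ND. Kng1, the kininogen that carries prekallikrein and factor XI and releases bradykinin (chromosome 16, 23057865 to 23082078, plus strand), was at 1201, 1457, 1863 and 1550.3 CPM in HFD+MEC1, 1181, 1156, 1219 and 1464 CPM in HFD and 1765, 2058, 1659 and 1662 CPM in ND. HFD was below ND in every library and HFD+MEC1 replicate 3 alone of its group reached into the ND range. It fell by 0.51 ± 0.14 in HFD against ND (adjusted p = 0.0414) and stood at 0.27 ± 0.14 in HFD+MEC1 against HFD (adjusted p = 0.382). The call held in 6 of 17 alternatives and was lost without any 1 ND library, without HFD replicate 1, 2 or 3 or HFD+MEC1 replicate 2 or 4, with the replicate block and with library totals, at an adjusted p up to 0.112. Of its 50-base stretches 18% occur also in Kng2.

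F11, the zymogen that links contact activation to factor IX, was at 55.5, 68.6, 62.0 and 79.4 CPM in HFD+MEC1, 53.5, 46.1, 35.1 and 48.4 CPM in HFD and 59.3, 70.7, 54.4 and 55.3 CPM in ND. It was the only member whose HFD+MEC1 libraries all lay above all HFD libraries, as did 3.13% of all tested genes (3.98% lay wholly below and 7.11% either way), and 0 complement genes did so, and its HFD libraries were all below ND. F11 stood at 0.54 ± 0.13 in HFD+MEC1 against HFD (adjusted p = 0.102, and 0.0202 by DESeq2) and at -0.39 ± 0.13 in HFD against ND (adjusted p = 0.0975). F12, factor XII, averaged 359 ± 40.7 CPM in HFD+MEC1, 319.7 ± 29.1 CPM in HFD and 383 ± 42.1 CPM in ND. Klkb1, prekallikrein, averaged 302 ± 77.4 CPM in HFD+MEC1, 292 ± 26.9 CPM in HFD and 311 ± 23.4 CPM in ND, and 42.7% of its 50-base stretches are also in the predicted gene Gm45753. Neither passed edgeR's test in any comparison.

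The factors of the chain to thrombin other than F7 did not pass edgeR's test in any comparison. F10, factor X, which with factor Va forms the enzyme that makes thrombin, was at 283, 335, 378 and 379 CPM in HFD+MEC1, 292, 259, 279 and 356 CPM in HFD and 377, 417, 375 and 373 CPM in ND. Its HFD libraries were below all ND libraries, and HFD+MEC1 overlapped with both groups (HFD minus ND -0.38 ± 0.12, adjusted p = 0.0673), and DESeq2 called it lower in HFD than in ND. F2, prothrombin, averaged 1405 ± 107 CPM in HFD+MEC1, 1298 ± 97.1 CPM in HFD and 1425 ± 87.8 CPM in ND. F5, the cofactor of factor X, averaged 464 ± 29.8 CPM in HFD+MEC1, 469 ± 16.9 CPM in HFD and 463 ± 28.6 CPM in ND, with log2 differences of -0.014 ± 0.09 for HFD+MEC1 against HFD and 0.017 ± 0.09 for HFD against ND. F9, factor IX, averaged 229 ± 21.8 CPM in HFD+MEC1, 236 ± 20.5 CPM in HFD and 231 ± 31.9 CPM in ND. F13b, the carrier subunit of the enzyme that crosslinks fibrin, averaged 197 ± 29.2 CPM in HFD+MEC1, 208 ± 12.6 CPM in HFD and 204 ± 16.1 CPM in ND.

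Fibrinogen is a hexamer made of paired alpha, beta and gamma chains, and their genes, Fga, Fgb and Fgg, are neighbours on chromosome 3. Their promoters are shown with that of C3 because HFD+MEC1 replicate 3 was the highest library for all 4 of these abundant genes. Each is given from 250 bases before to 50 bases after the gene's start in RefSeq on GRCm38.p6, 5′ to 3′ on the gene's own strand. Matches to any of 4 motifs are in capitals. For Fga the RefSeq start lies downstream of the GENCODE start at 83026076 given below, and its positions count from the RefSeq start. The regions are chr3:83025903-83026202 on the plus strand for Fga, chr3:83049814-83050113 on the minus strand for Fgb, chr3:83007474-83007773 on the plus strand for Fgg and chr17:57228087-57228386 on the minus strand for C3.
Fga: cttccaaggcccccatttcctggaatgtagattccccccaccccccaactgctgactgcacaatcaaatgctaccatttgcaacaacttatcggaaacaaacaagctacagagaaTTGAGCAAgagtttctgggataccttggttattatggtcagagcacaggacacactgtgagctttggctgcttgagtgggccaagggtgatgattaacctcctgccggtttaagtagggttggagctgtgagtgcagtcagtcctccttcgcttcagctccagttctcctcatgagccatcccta
Fgb: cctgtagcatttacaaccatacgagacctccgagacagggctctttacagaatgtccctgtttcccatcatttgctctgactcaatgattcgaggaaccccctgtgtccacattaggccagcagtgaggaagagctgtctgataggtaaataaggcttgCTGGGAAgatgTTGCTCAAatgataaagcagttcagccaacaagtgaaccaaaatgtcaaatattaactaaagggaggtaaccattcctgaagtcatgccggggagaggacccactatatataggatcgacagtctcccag
Fgg: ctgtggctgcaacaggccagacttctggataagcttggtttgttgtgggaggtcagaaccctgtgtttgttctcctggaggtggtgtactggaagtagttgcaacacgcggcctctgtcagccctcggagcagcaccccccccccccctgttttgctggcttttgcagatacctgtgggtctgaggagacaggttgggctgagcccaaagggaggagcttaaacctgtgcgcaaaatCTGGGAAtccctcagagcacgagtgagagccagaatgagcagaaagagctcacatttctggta
C3: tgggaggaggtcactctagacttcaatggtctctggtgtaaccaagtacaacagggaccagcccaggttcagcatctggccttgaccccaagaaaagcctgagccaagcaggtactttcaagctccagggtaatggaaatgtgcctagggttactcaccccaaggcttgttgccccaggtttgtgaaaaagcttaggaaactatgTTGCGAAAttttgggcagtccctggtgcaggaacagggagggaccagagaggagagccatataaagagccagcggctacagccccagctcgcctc
The motifs, searched on both strands, were CTGGGAA and CTGGAAA (STAT3 type), TTGCNNAA (C/EBP type) and an HNF1-type motif. CTGGGAA matched Fgb at -91 and Fgg at -13 relative to the start, and TTGCNNAA matched Fga at -135 (on the other strand), Fgb at -80 and C3 at -45, with no overlap among these matches. RefSeq's table held 32 promoters for 31 of the 41 genes. CTGGGAA was in 7 of them (21.9%, against 11.1% of all 32851 promoters of the same length), CTGGAAA in 3 (9.38%, against 7.78%), TTGCNNAA in 10 (31.2%, against 10.8%) and the HNF1-type motif in 3, those of C4bp, F13b and Hc (9.38%, against 0.399%). These matches describe letters in the window and do not show binding.

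The fibrinogen genes had the greatest fold differences of coagulation between HFD+MEC1 and HFD, and the size of these depended on a single library. Fgb (ENSMUSG00000033831.5, chromosome 3, 83040141 to 83049863, minus strand) was at 3217, 5946, 12688 and 5720.2 CPM in HFD+MEC1, 2708, 3840.2, 2822 and 4788 CPM in HFD and 4909.7, 4469.8, 4237 and 4339 CPM in ND. Fga (chromosome 3, 83026076 to 83033627, plus strand) was at 3221, 5507, 11749 and 4942 CPM in HFD+MEC1, 2611, 3486, 2891 and 4309 CPM in HFD and 4496, 4259, 4181 and 4244 CPM in ND. Fgg (chromosome 3, 83007724 to 83015049, plus strand) was at 2995, 5566, 11844 and 5358 CPM in HFD+MEC1, 2706, 3783, 2886 and 4541 CPM in HFD and 4386, 4119.5, 3801 and 3805 CPM in ND. For each gene HFD+MEC1 replicate 3 was the highest of the 12 libraries, 2.76 to 2.99 times the median library, HFD+MEC1 replicate 1 was within the HFD range, and the groups overlapped. None passed in HFD+MEC1 against HFD, where Fgb stood at 0.96 ± 0.33, Fga at 0.93 ± 0.31 and Fgg at 0.89 ± 0.32 (adjusted p 0.205, 0.188 and 0.224). Without HFD+MEC1 replicate 3 the values were 0.49, 0.46 and 0.42, and without replicate 1 they were 1.20 ± 0.26, 1.15 ± 0.25 and 1.13 ± 0.25 with adjusted p from 0.0318 to 0.0332. HFD minus ND was -0.34 ± 0.33 for Fgb, -0.37 ± 0.30 for Fga and -0.21 ± 0.32 for Fgg, and none of these passed.

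The ratio of Fga to Fgb RPKM was 0.440 to 0.522 over all 12 libraries, and the groups overlapped. That of Fgg to Fgb was 0.752 to 0.756 in HFD+MEC1, 0.766 to 0.826 in HFD and 0.708 to 0.744 in ND. The groups did not overlap in this second ratio, and neither ratio was tested. The acute phase serum amyloid gene Saa1 was at 23.4, 1707, 7761 and 1430.0 CPM in HFD+MEC1 replicates 1 to 4, 78.9 to 1178 CPM in HFD and 582 to 1218 CPM in ND libraries, so its highest and lowest libraries were those highest and lowest in fibrinogen within HFD+MEC1. All 20 acute phase genes had positive HFD+MEC1 minus HFD values with a median of 1.15, and 0 passed edgeR's test (9 had an unadjusted p under 0.05, as did 14.8% of all tested genes, DESeq2 called 0 and limma-voom 0). The greatest were Saa3 (4.61 ± 1.47), Lcn2 (3.57 ± 1.50) and Orm2 (3.29 ± 1.33), with adjusted p 0.203, 0.316 and 0.302. Lcn2, which binds bacterial iron carriers, was at 3.65, 93.4, 1237 and 66.9 CPM in HFD+MEC1 and 13.1 to 66.0 CPM in HFD libraries, and Saa3 at 3.35, 22.9, 396 and 6.06 CPM in HFD+MEC1 and 3.797 to 4.60 CPM in HFD libraries. Against ND, 0 of the 20 passed edgeR's test in HFD+MEC1 (8 at an unadjusted p under 0.05, as were 19.1% of all tested genes, 1 by DESeq2 and 0 by limma-voom), where Saa3, Lcn2 and Saa2 stood at 3.46 ± 1.38, 3.03 ± 1.46 and 2.23 ± 1.60. In HFD 0 passed against ND (0 at an unadjusted p under 0.05, 0 by DESeq2 and 0 by limma-voom), with a median of -0.29 and with Orm2, Saa1 and Saa3 at -1.71 ± 1.26, -1.16 ± 1.37 and -1.15 ± 1.36. The part of this acute phase difference between libraries in the fibrinogen values was not tested.

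**Figure D5:**
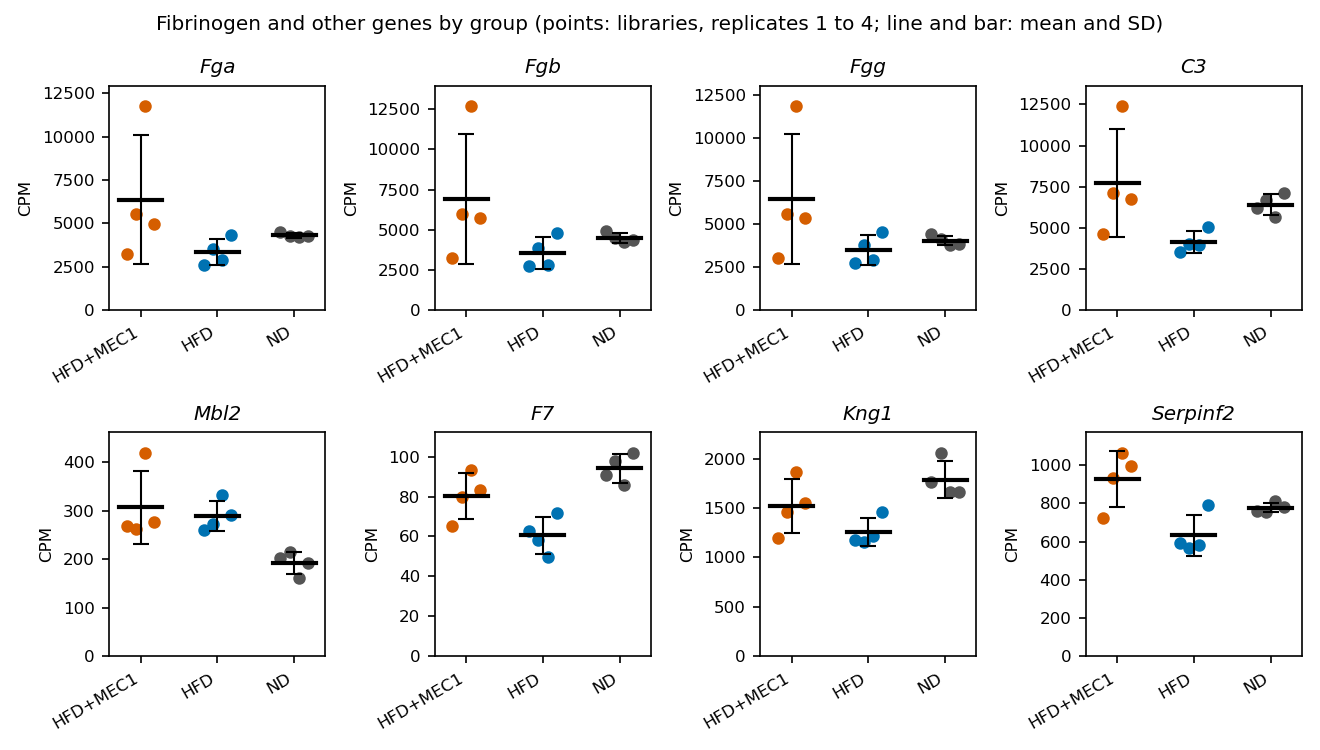
CPM by library of the fibrinogen genes, C3, Mbl2, F7, Kng1 and Serpinf2 in HFD+MEC1, HFD and ND livers, each point a library and each line and bar the group mean and SD (n = 4). HFD+MEC1 replicate 3 stands at 11749 CPM or above for the 3 fibrinogen genes and every other library at 5946 CPM or below.

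The serpins and the protein C pathway restrain the cascade, and none of their genes passed edgeR's test in any comparison. Serpinc1, antithrombin, averaged 1539 ± 88.3 CPM in HFD+MEC1, 1506 ± 68.5 CPM in HFD and 1759 ± 51.3 CPM in ND, with every library of both high-fat groups below every ND library and adjusted p 0.329 and 0.227 against ND by edgeR. DESeq2 called it lower in HFD against ND. In HFD+MEC1 against ND it was the 1 coagulation gene without overlap, beside C2 and C8b below and Mbl2 above in complement, where 5.84% of all tested genes lay wholly below and 5.13% wholly above. Zbtb37 on the opposite strand overlaps 34.4% of the exonic sequence of Serpinc1. Serpind1, heparin cofactor II, averaged 431 ± 43.5 CPM in HFD+MEC1, 432 ± 10.5 CPM in HFD and 509 ± 31.5 CPM in ND. Proc, protein C, averaged 349.7 ± 30.1 CPM in HFD+MEC1, 332 ± 18.3 CPM in HFD and 371 ± 26.5 CPM in ND. Its cofactor protein S, Pros1, averaged 63.8 ± 10.8 CPM in HFD+MEC1, 58.7 ± 1.23 CPM in HFD and 73.2 ± 8.22 CPM in ND (HFD minus ND -0.32 ± 0.11, adjusted p = 0.0983).

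Of the genes of clot dissolution, Serpinf2, the inhibitor of plasmin, had the smallest adjusted p of coagulation for MEC1. It was at 721, 931, 1064 and 994 CPM in HFD+MEC1, 591, 568, 580.4 and 794 CPM in HFD and 761, 755, 810.3 and 780.4 CPM in ND. HFD replicate 4 was apart from the other HFD libraries and reached the HFD+MEC1 and ND ranges, and HFD+MEC1 replicate 1 was the lowest of its group. Serpinf2 stood at 0.55 ± 0.14 in HFD+MEC1 against HFD (adjusted p = 0.101, and 0.00571 by DESeq2), at 0.48 without HFD+MEC1 replicate 3 and at 0.65 ± 0.12 without replicate 1 (adjusted p = 0.0157). Plg, plasminogen, averaged 2072 ± 254 CPM in HFD+MEC1, 1664 ± 156 CPM in HFD and 2085 ± 74.5 CPM in ND, with HFD wholly below ND (HFD minus ND -0.33 ± 0.12, adjusted p = 0.132 by edgeR), and DESeq2 called it lower in HFD. The plasminogen gene overlaps Slc22a3 on the opposite strand in 11.3% of its exonic sequence.

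Around the 41 genes, 28 other complement genes (receptors, membrane inhibitors and further plasma factors) and 28 other coagulation genes were tested. In HFD against ND 0 of the other complement genes passed edgeR's test, with 8 at an unadjusted p under 0.05, 3 called by DESeq2 and 0 by limma-voom, and the greatest fold differences were those of Cfd, factor D (3.63 ± 1.28, adjusted p = 0.14), Cd46 (-1.60 ± 0.59, adjusted p = 0.127) and Itgax (1.16 ± 0.41, adjusted p = 0.105). Among the other coagulation genes Thbd, thrombomodulin, rose and Proz, protein Z, fell. Of all tested genes, 6.3% passed in this comparison and 20.7% had an unadjusted p under 0.05. Thbd was at 7.34, 6.39, 7.37 and 5.51 CPM in HFD and 2.94, 4.43, 4.40 and 3.64 CPM in ND (0.79 ± 0.20, adjusted p = 0.0246), and Proz at 265, 254, 247 and 283 CPM in HFD and 337, 376, 334 and 351 CPM in ND (-0.41 ± 0.10, adjusted p = 0.0201). The Thbd call was lost without ND replicate 1 or 4 or HFD replicate 1 or 3, with an adjusted p up to 0.0792. The Proz call was lost without ND replicate 2 or 4 or HFD replicate 2 or 3 and with library totals, with an adjusted p up to 0.0736.

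In HFD+MEC1 against HFD 0 of these genes passed in either list, with 8 of the other complement and 4 of the other coagulation genes at an unadjusted p under 0.05. DESeq2 called 4 and 1 of them and limma-voom 0 and 0. Of all tested genes, 0.0282% passed in this comparison and 14.8% had an unadjusted p under 0.05. Serpina10, the protein Z-dependent inhibitor of factor X, was at 132, 274, 662 and 252 CPM in HFD+MEC1 and 109.6, 147, 152 and 207 CPM in HFD (1.10 ± 0.42, adjusted p = 0.264). Fgl1, a fibrinogen-like protein secreted by hepatocytes, was at 253, 859, 1695 and 783 CPM in HFD+MEC1 and 170.2, 396, 269 and 620.2 CPM in HFD (1.30 ± 0.57, adjusted p = 0.329). HFD+MEC1 replicate 3 was the highest library for both genes, as for fibrinogen. Itgam stood at 1.32 ± 0.33 (adjusted p = 0.102), and the low-level genes Cd46, at most 0.459 CPM in any library, and F13a1, at most 1.45 CPM, at 1.68 ± 0.59 and -1.05 ± 0.67 (adjusted p 0.201 and 0.496).

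In HFD+MEC1 against ND 3 of the other complement genes rose and 0 of the other coagulation genes passed edgeR's test (4 at an unadjusted p under 0.05, 2 by DESeq2 and 0 by limma-voom, with the low-level genes Serpina5, F2rl1 and Procr, at most 0.745, 0.773 and 1.46 CPM in any library, at -1.50 ± 1.08, -1.10 ± 0.64 and 1.03 ± 0.46). Of all tested genes, 4.54% passed in this comparison, 2.15% rising, and 19.1% had an unadjusted p under 0.05. C1rl, a protease related to C1r, was at 147, 137, 151 and 151 CPM in HFD+MEC1 and 112, 119.9, 119 and 112 CPM in ND (0.34 ± 0.07, adjusted p = 0.0143), without overlap, and its call was lost without ND replicate 1 or 4 (adjusted p up to 0.0557). Cd55, a membrane inhibitor of the C3-cleaving enzymes, was at 16.3, 17.1, 18.3 and 16.2 CPM in HFD+MEC1 and 11.7, 12.3, 13.6 and 13.6 CPM in ND (0.41 ± 0.11, adjusted p = 0.042). Itgam, a subunit of complement receptor CR3 on myeloid cells, was at 1.99, 4.28, 5.60 and 2.75 CPM in HFD+MEC1, 0.734, 2.14, 1.57 and 1.41 CPM in HFD and 1.45, 1.74, 1.60 and 1.41 CPM in ND (HFD+MEC1 minus ND 1.24 ± 0.33, adjusted p = 0.042). The summed level of 7 monocyte and neutrophil markers was 5.38 to 16.7 CPM in HFD+MEC1, 5.89 to 14.5 CPM in HFD and 4.16 to 6.81 CPM in ND libraries. The part of these cells in the Itgam result was not tested. The Cd55 call was lost in 9 of 17 alternatives, without ND replicate 1, 2 or 4, HFD replicate 1 or 3 or any 1 HFD+MEC1 library, and the Itgam call in 8, without any 1 ND library, HFD replicate 3 or HFD+MEC1 replicate 2 or 3 and with limma-voom (adjusted p up to 0.12 and 0.13).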

How the data were processed

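For each of 12 liver libraries the authors deposited a table of raw counts by gene symbol, and for all of them together a table of RPKM values, per the file headers; STAR 2.7.10a and mm10 are named in the submitters' processing notes, and the counting tool, its annotation and its use of strand are not given in the sources used here. The deposited RPKM were used only to compare levels between genes and for ratios, and 12 RPKM columns that match no sample were not used. Low counts (1 to 20) were even in 70.1 to 74.7% of cases, so counting error exceeds what totals of 39916405 to 51340317 would give. Groups and replicate numbers come from the sample titles.

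The 41 genes and the other lists were chosen with earlier results of these data known. With edgeR 4.0.16 in R 4.3.3, filterByExpr kept 14172 genes (99.98% of counts), libraries were scaled by TMM, and 1 robust quasi-likelihood model was fitted to the 3 groups, giving two-sided tests adjusted by Benjamini-Hochberg over all tested genes at 0.05; SE is the absolute log2 fold change over the square root of F. The model was tested on simulated data first. The common biological coefficient of variation was 0.200. Alternatives were library totals, no filter, a replicate block, DESeq2 1.42.0, limma-voom (limma 3.58.1) and leaving out each library, 17 in all. Values per library are printed for members past the threshold, for the 5 of each set with the greatest absolute log2 fold change in HFD+MEC1 minus HFD and in HFD minus ND, and means for the rest; in the lists of other complement, other coagulation and acute phase genes, those past the threshold are named for each comparison or, where none passed, the 3 with the greatest absolute fold change. One gene that this rule names is not reported here. Coordinates and overlaps are from GENCODE M21 (GRCm38, the assembly of mm10), 1-based, and shared 50-base stretches from its transcripts. Promoters are from RefSeq, GRCm38.p6.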

Additional observations from a re-analysis of the deposited data

Results flagged for a closer look

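In 123 groups of 4 libraries (41 genes in 3 groups), 8 had a library that lay apart from the other 3 by Dixon's test at the 95% level. Chance gives about 1 in 20 groups. The 41 genes share the same libraries, so the groups are not independent and this count cannot show whether chance alone gave it. In HFD+MEC1, Hc was at 763 CPM in replicate 1, against 1298 to 1347 CPM in the other 3 libraries. Also in HFD+MEC1, Mbl2 was at 419 CPM in replicate 3, against 263 to 276 CPM, F5 at 419 CPM in replicate 3, against 478 to 481 CPM, and C8g at 332 CPM in replicate 4, against 266 to 273 CPM. In HFD, Cfi was at 488 CPM in replicate 1, against 580 to 598 CPM, Masp1 at 91.1 CPM in replicate 1, against 68.4 to 71.5 CPM, and Serpinf2 at 794 CPM in replicate 4, against 568 to 591 CPM. In ND, F10 was at 417 CPM in replicate 2, against 373 to 377 CPM in the other 3.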

How the results depend on the processing

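Calls in HFD+MEC1 minus HFD depend most on the settings. Genes called in the whole series in this comparison, 4 as reported, were 0 with library totals, 17 with no filter, 389 with DESeq2 and 2 with limma-voom, and DESeq2 called 3 complement and 2 coagulation members. Leaving out 1 library at a time gave 0 to 460 genes, 0 to 12 complement members (median log2 fold change 0.33 to 0.45) and 0 to 6 coagulation members (0.11 to 0.24). In HFD+MEC1 minus ND no filter left 1 complement member called and DESeq2 gave 1155 genes in the series, against 644. Leaving out 1 library gave 334 to 678 genes, 1 to 3 complement members (median -0.052 to 0.13) and 0 to 0 coagulation members (median -0.100 to -0.0042). In HFD minus ND 2 coagulation members were called as reported, 1 with library totals and 5 with DESeq2, and DESeq2 called 1391 genes in the series, against 893. Leaving out 1 library gave 423 to 1109 genes, 2 to 11 complement members (median -0.42 to -0.35) and 1 to 4 coagulation members (-0.31 to -0.24). Library totals moved the median of all genes in HFD minus ND to 0.12, against -0.0035 with TMM, and that of the coagulation members to -0.14, against -0.26 with TMM. They turned the sign of Klkb1 in HFD minus ND, of C1qa, Masp2 and Serpinc1 in HFD+MEC1 minus HFD and of Cfi, Masp1, F2, F9, F13b, Plg and Klkb1 in HFD+MEC1 minus ND, none of which passed there. The cause of these shifts was not tested.

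The labels do not say that equal replicate numbers pair the samples. Deviations of same-numbered libraries from their group means correlated at -0.094 to 0.13, and most libraries correlated best with another number, so the numbers were not taken as pairs. With the replicate block, 21 genes passed in HFD+MEC1 minus HFD and 0 members, and in HFD minus ND 1 coagulation member passed; the other counts stayed within 1.5 times those reported.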

Other observations

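Genes that signal to or regulate these genes in hepatocytes were read in the same fits. Il6ra, the receptor of interleukin-6, rose in HFD+MEC1 against ND, at 42.5, 42.3, 33.9 and 54.5 CPM in HFD+MEC1, 19.4, 26.4, 20.5 and 23.0 CPM in HFD and 12.1, 16.2, 24.0 and 16.9 CPM in ND libraries (1.32 ± 0.19, adjusted p = 0.00167 by edgeR). Its HFD+MEC1 libraries were all above all HFD libraries (0.96 ± 0.19, adjusted p = 0.0721), as were those of 3.13% of all tested genes. DESeq2, which called 2.74% of all tested genes in that comparison, called Il6ra higher there too, with Il1r1 and Socs3 higher and Il1b lower. Among the 12 tested signalling genes, HFD+MEC1 replicate 3, the highest library for fibrinogen, was the highest library for Socs3, Il1r1, Stat3, Il6st, Osmr, Jak1 and Cebpb. It was not the highest for Il1b, Cebpd, Nfkb1 and Nfkbia, and it was the lowest of the HFD+MEC1 libraries for Il6ra. Cebpd, a transcription factor of the acute phase, rose in HFD against ND, at 9.96, 6.69, 9.85 and 9.42 CPM in HFD and 3.07, 5.09, 6.38 and 4.90 CPM in ND libraries (0.89 ± 0.22, adjusted p = 0.0247). In that comparison DESeq2 and limma-voom, which called 9.82% and 6.29% of all tested genes, called Cebpd and Nfkbia higher. Il1b fell in HFD+MEC1 against ND, at 1.38, 0.983, 1.77 and 0.917 CPM in HFD+MEC1 and 3.57, 5.35, 3.00 and 1.88 CPM in ND libraries (adjusted p = 0.0144). Il6 and Tnf had at most 10 and 16 counts in any library and were not tested. By edgeR's test, 4.54% of all tested genes passed in HFD+MEC1 against ND and 6.3% in HFD against ND. Of 9 regulators of hepatocyte genes, Ppara alone passed edgeR's test, at 249 ± 35.2 CPM in HFD+MEC1, 223 ± 13.1 CPM in HFD and 137 ± 16.2 CPM in ND (adjusted p = 0.00067 and 0.00187 against ND). These genes were named after their values were seen.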
